A study of Mus musculus with 15 samples.

Results

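Hematopoietic stem cells (HSCs) of the mouse that had been kept in culture were compared with HSCs sorted fresh from bone marrow. The libraries were chosen by their titles: 3 are titled Control, the cultured cells without drug, and 4 are titled Untreated, the fresh cells, so that 7 of the 15 libraries of the series enter the comparison. All 7 come from bone marrow HSCs of wild-type C57BL/6 mice aged 8 to 10 weeks. The control cells were sorted again after culture from the population that had divided at most 3 times, and the untreated cells came from mice given no drug. Each library was made from 100 sorted cells. The sources used here give neither the culture medium, its cytokines and the length of culture nor the surface markers used for sorting. The other 8 libraries are fresh HSCs at day 4 after 5-fluorouracil (5-FU), which kills dividing blood cells, and cultured HSCs given nifedipine, a blocker of L-type calcium channels. They appear below only as levels set beside those of the 7.

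Most HSCs in the marrow of an adult mouse rest outside the cell cycle, held there by signals of the niche and by transcription factors such as FOXO proteins. When cytokines drive them into division they grow, switch on the machinery of DNA replication and mitosis, raise their metabolism and, in most culture systems, lose part of their stem cell program. Sorting can also leave a mark of its own, since enzyme digestion, staining and time on ice or at room temperature are known to switch on immediate early genes within minutes to hours. Both groups were sorted, and the part of sorting in the differences below was not tested.

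The control libraries held between 20145079 and 26673045 exon reads and the untreated libraries between 6171730 and 16685285. Exon reads made up 35.51% to 38.86% of the read total behind the deposited RPKM values in control and 24.96% to 26.28% in untreated. The fresh and the cultured libraries carry separately numbered file sets, so that culture and any difference in library handling cannot be told apart. Shorter genes were on the whole higher in control: with genes split into 4 equal groups by exon length, the median log2 difference was 0.32 in the shortest group and -0.38 in the longest. Spearman correlations of log2 CPM (exon read counts scaled to a common library size with TMM factors) were 0.968 to 0.986 within untreated, 0.992 to 0.994 within control and 0.853 to 0.900 between the groups. Untreated library 3 stood closest to control on the first principal component, which carried 80.2% of the variance. Nothing in the labels says that replicates are separate mice or cultures. Every p-value therefore rests on how far these libraries differ within a group, which can be technical variation. Reads carry no strand, and near-identical copies (histone, ribosomal protein, Gbp, Ifi and H2 genes) may share reads, so that single members of such families are uncertain.

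Of 13518 genes tested, 72.0% were called, meaning an adjusted p of 0.05 or less in edgeR's quasi-likelihood test with Benjamini-Hochberg adjustment over all tested genes. Called genes split into 35.8% of tested genes higher in control and 36.2% lower. Rises, falls and calls of single genes are given as log2 differences unless CPM is named. Because a call was this common, a stricter class is used below. A large change is a call with at least 1 unit of log2 difference (control minus untreated, so that positive values are higher in culture) and no overlap between the 3 control and the 4 untreated libraries. Large rises made up 15.3% of tested genes and large falls 20.8%, and each count in a gene list is to be read beside these. Large changes of at least 2 log2 units were 419 rises and 1552 falls, and 122 genes with a large fall had no read in any control library. The split between directions rests on the scaling: 49.8% of called genes were higher in control with TMM, 60.1% when libraries were scaled by their RPKM read total and 37.8% with upper-quartile factors, which moved the median of all genes by 0.24 and -0.25 in turn. List medians are therefore set beside the median of all tested genes, which was -0.05. In bulk RNA of sorted cells, fewer cells expressing a gene and less RNA per cell cannot be told apart. CPM values are shares of a library, and total RNA per cell was not measured. A lower share therefore need not be less of that RNA per cell.

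**Figure D1:**
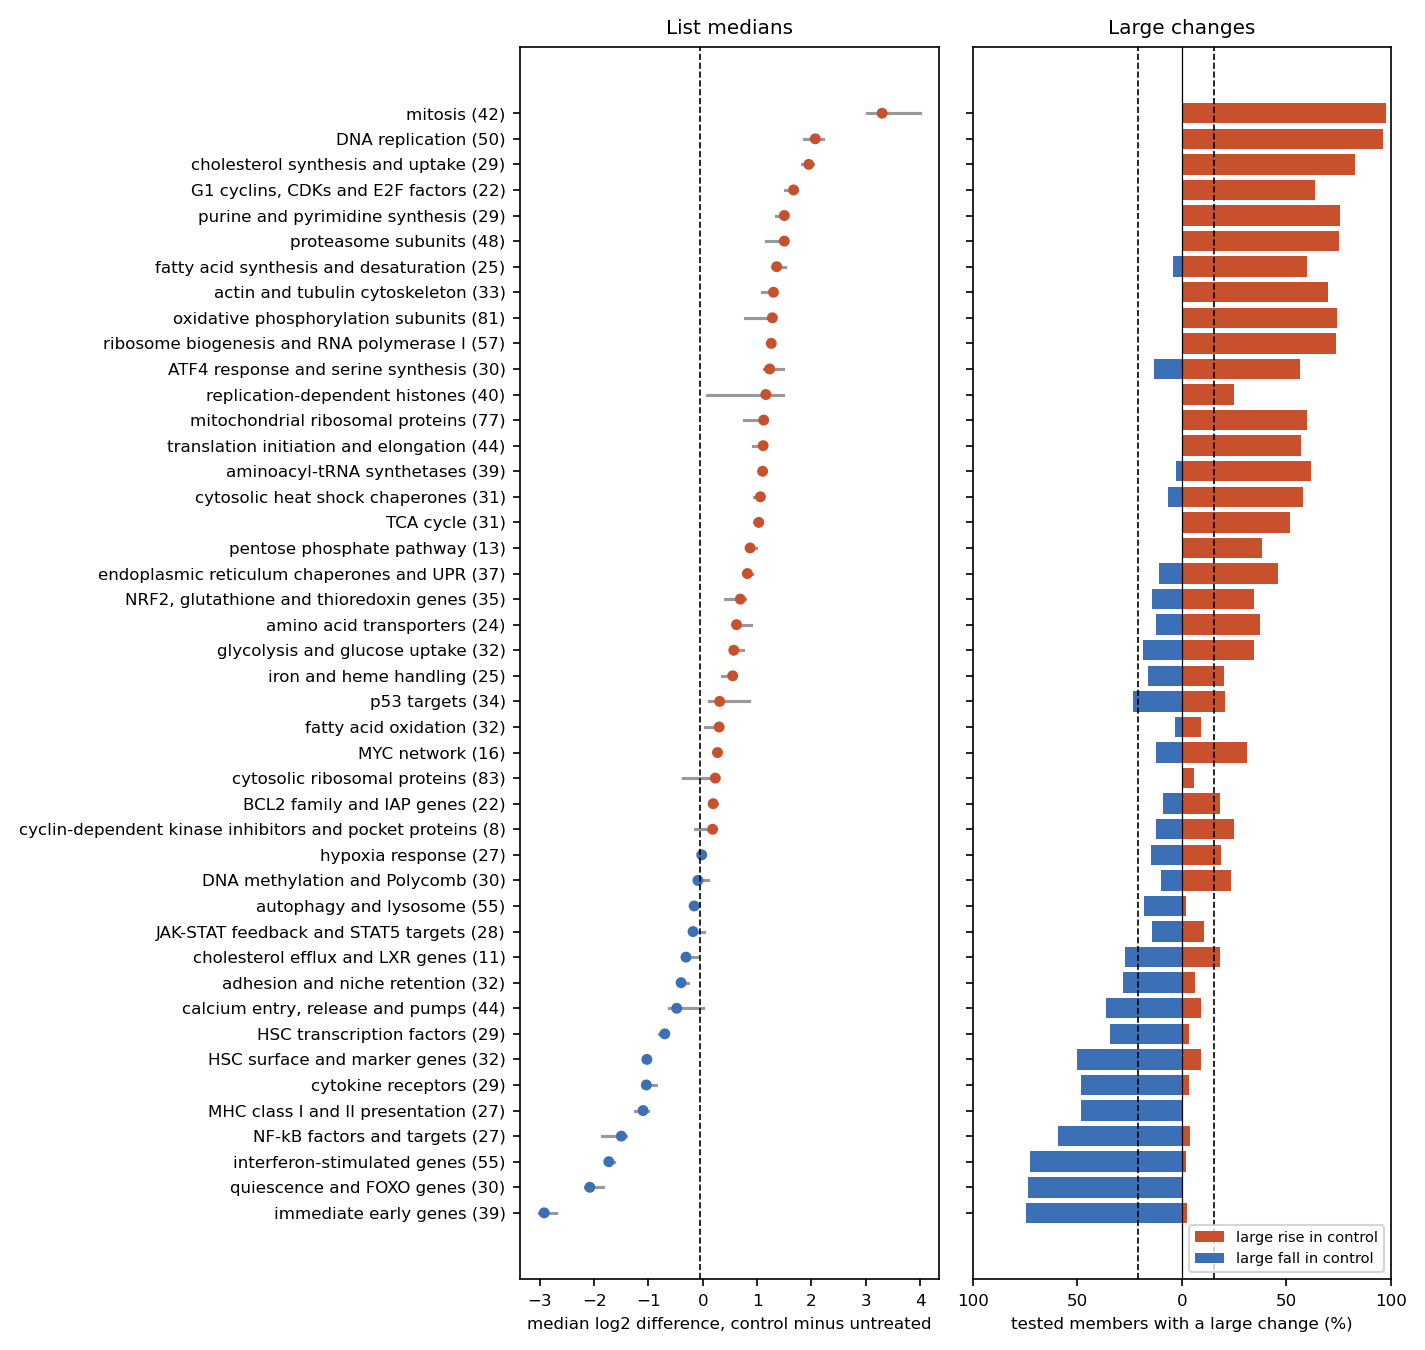
Median log2 difference (left; points are list medians, grey lines their range over the alternative settings with each setting's shift of all genes taken off) and share of tested members with a large rise or fall in control (right) for the 44 lists that are not cell type markers, with the number of tested members in brackets. The dashed lines mark all tested genes, at a median of -0.05, 15.3% large rises and 20.8% large falls; mitosis lies at the top with a median of 3.30 and immediate early genes at the bottom with -2.92.

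Transcripts that define HSCs were present in both groups, though at different levels. Hlf, Mecom, Meis1, Kit and Fgd5, genes that mark HSCs, lay at 90.0 CPM or more in all 7 libraries, and Slamf1, which encodes the HSC marker CD150, lay between 26.2 and 49.2 CPM in all 7. Cd48, which is low on HSCs and rises on progenitors, was at 1.03 to 3.12 CPM in untreated and 12.4 to 21.5 CPM in control.

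Genes of cell division made the broadest rise. Of 42 mitosis genes tested, 41 had a large rise and none fell, with a median of 3.30. Their summed level was 684, 365, 1401 and 329 CPM in untreated libraries 1 to 4 and 6153, 5943 and 6048 CPM in control libraries 1 to 3. Untreated library 3 was the highest of its group and still lay far below control. After 5-FU the same sum was 5173 to 6195 CPM, and with nifedipine 3743 to 4465 CPM. Without untreated library 3 the median, with the shift of all genes taken off, was 3.99 and 41 members again had a large rise.

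Mki67 (chr7:135689788-135716409 in mm10), which encodes the proliferation marker Ki-67, was at 150, 56.3, 319 and 78.0 CPM in untreated and at 1559, 1548 and 1503 CPM in control. The groups did not overlap, and the log2 difference was 3.33 (SE 0.49, adjusted p = 0.000177). Ccnb2, a cyclin that drives entry into mitosis, was at 6.89, 0.296, 11.2 and 0.322 CPM in untreated and at 180, 148 and 178 CPM in control, a log2 difference of 4.99 (SE 0.65, adjusted p = 8.28e-05). In untreated it was close to absent in libraries 2 and 4. Spindle and checkpoint genes moved alike: Cdc20 rose by 4.01, Spc24 by 3.66, Mad2l1 by 3.17 and Ccnb1 by 4.12 on the log2 scale. Cdk1, the mitotic kinase, rose less, by 2.62.

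DNA replication genes rose almost as widely, with 48 large rises among 50 tested and a median of 2.07. Their sum was 1962 to 3140 CPM in untreated and 10437 to 10601 CPM in control. Rrm2, the subunit of ribonucleotide reductase that is made in S phase, was at 12.7, 6.37, 16.0 and 4.38 CPM in untreated and at 251, 265 and 261 CPM in control (log2 difference 4.65, SE 0.32, adjusted p = 1.07e-06). Mcm5, part of the helicase that unwinds DNA, was at 56.0 to 108 CPM in untreated and 543 to 596 CPM in control. Orc1, the origin recognition subunit, rose by 2.21, Dtl by 2.10 and Rfc1, the large subunit of the clamp loader, by 1.07. Replication-dependent histone genes were thinly measured: 40 of 67 passed the filter, 10 had a large rise and none a large fall. These mRNAs lack poly(A) tails, and the count of large rises was 22 without untreated library 3, 5 with reads thinned to the smallest library and 1 with a filter of 10 CPM.

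Among the genes that carry cells from G1 into S, 14 of 22 had a large rise, with a median of 1.67. Ccne1, cyclin E1, was at 0.580 to 2.73 CPM in untreated and 32.5 to 47.1 CPM in control (log2 difference 4.49, SE 0.42, adjusted p = 7.57e-06). Cdk4 rose by 1.65, Tfdp1, the partner of E2F factors, by 2.09 and Cks1b by 2.75. The D-type cyclins did not share this rise. Ccnd1 was at 34.7, 36.9, 40.2 and 57.8 CPM in untreated and 38.4, 40.8 and 28.4 CPM in control, and the groups overlapped (adjusted p = 0.272). Ccnd2 was level as well, at 582 to 614 CPM in untreated and 587 to 611 CPM in control, and only Ccnd3 was called, at 0.77. Ccnd1 had 191 to 241 CPM after 5-FU and 113 to 126 CPM with nifedipine.

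Inhibitors of cyclin-dependent kinases were mixed. Cdkn1c (p57), the inhibitor most tied to HSC quiescence, fell from 34.2, 37.5, 41.3 and 43.0 CPM in untreated to 7.94, 7.30 and 8.11 CPM in control, a log2 difference of -2.32 (SE 0.13, adjusted p = 2.7e-07). Cdkn1b (p27) fell by 0.71 and Rbl2, a pocket protein of resting cells, fell by 0.83, both called but not large. Its relative Rbl1 rose by 1.06. Cdkn1a (p21) overlapped between the groups, at 2.30 to 12.8 CPM in untreated and 9.63 to 14.4 CPM in control (log2 difference 0.95, SE 0.52, adjusted p = 0.123). It passed the test with the replicate block (1.66), with limma-voom (1.16), in the fit of all 15 libraries (0.87) and without untreated library 4 (1.46).

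Promoter sequence was read from RefSeq windows (GRCm38.p6, 250 bases before to 50 after each start) for the lists with many large changes. The sequences below show the letters that repeat in the division genes. The cell cycle homology region (CHR, TTTGAA) marks promoters of genes switched on in G2 and mitosis, and E2F sites (TTTCGCGC or TTTGGCGC) those switched on at the start of S phase. Each motif was searched on both strands, and matches of different motifs may share bases. Capitals mark the motif in each stretch, which runs 5′ to 3′ on the strand of the gene and ends before its start site.
Cdk1, chr10:69352913-69352972, minus strand, CHR: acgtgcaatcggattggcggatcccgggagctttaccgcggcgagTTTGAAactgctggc
Ccnb2, chr9:70421671-70421766, minus strand, CHR: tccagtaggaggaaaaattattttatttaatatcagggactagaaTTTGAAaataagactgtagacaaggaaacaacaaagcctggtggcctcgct
Orc1, chr4:108579382-108579453, plus strand, E2F site on the opposite strand: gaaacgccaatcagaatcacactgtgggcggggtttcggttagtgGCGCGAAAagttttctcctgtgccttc
Mcm5, chr8:75109311-75109408, plus strand, E2F site: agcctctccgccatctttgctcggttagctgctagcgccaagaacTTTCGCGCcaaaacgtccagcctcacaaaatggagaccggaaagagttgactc

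A CHR was present in 24 of the 32 mitosis genes with a large rise that had a window (75%), against 20.2% of all 27025 genes with a window. A CCAAT box, bound by NF-Y, was present in 25 of the 32 (78.1%), against 41.1% of all. Of 39 replication genes with a large rise and a window, 8 held TTTCGCGC (20.5%, against 0.374% of all) and 7 held TTTGGCGC (17.9%, against 0.585%). A match is a description of the letters and shows no binding.

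Genes for building ribosomes and protein rose together. Ribosome biogenesis had 42 large rises among 57 tested and no large fall, with a median of 1.26, and its sum went from 3965 to 4696 CPM in untreated to 10926 to 11548 CPM in control. Npm1, nucleophosmin of the nucleolus, was at 336, 367, 393 and 307 CPM in untreated and at 1628, 1531 and 1416 CPM in control (log2 difference 2.12, SE 0.08, adjusted p = 4.45e-08). Mybbp1a rose by 1.60 and Dkc1, which modifies ribosomal RNA, by 1.67. The E-box CACGTG, which MYC-MAX can bind, was in 10 of 36 of the risen genes with a window (27.8%), against 8.09% of all.

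Myc itself did not pass the test, and did when libraries were scaled by their RPKM read total (log2 difference 0.54), with limma-voom (0.33) and without control library 2 (0.41). It was at 77.1, 78.9, 77.5 and 54.0 CPM in untreated and 97.6, 77.2 and 91.1 CPM in control, and the groups overlapped (log2 difference 0.31, SE 0.14, adjusted p = 0.0719). Mycn was called at 0.23, and not with the 10 CPM filter, the exon length trend removed or upper-quartile factors. Nme1, Ran, Cad, Odc1 and Ybx3 were the 5 large rises in the MYC network list, from 1.89 to 2.65. The MYC antagonists Mxd1 and Mxd4 were its large falls, at -1.21 and -1.57.

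Translation factors had 25 large rises among 44 tested (median 1.11), led by Eif5a at 1.92, and aminoacyl-tRNA synthetases 24 among 39 (median 1.10), led by Aars at 2.46 and Gars at 2.09. The one large fall there was Ears2, a mitochondrial synthetase, at -1.01. Ribosomal proteins of the cytosol differed from these: 5 of 83 had a large rise (Rps27l, Rpl36al, Rps2, Rpl41 and Rpl7a), none a large fall, and the median was 0.23. With the trend over exon length removed the median was -0.36, and 1 member rose and 2 fell by this rule. Their sum was 33833 to 35192 CPM in untreated and 40739 to 42987 CPM in control.

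Genes of protein folding and turnover followed. Proteasome subunits had 36 large rises among 48 tested and a median of 1.5, with Psmd1 at 1.93, Psmc3 at 1.92 and Psma2 at 1.82. Cytosolic chaperones had 18 large rises among 31 tested (median 1.06). Hsp90aa1, the inducible HSP90, was at 795, 705, 750 and 703 CPM in untreated and 2903, 2689 and 2722 CPM in control (log2 difference 1.91, SE 0.05, adjusted p = 1.31e-08). The chaperonin subunits Cct6a and Cct7 both rose by 1.73. Dnajb1, a heat-shock induced cochaperone, went the other way at -1.17, and the small heat shock gene Hspb1 had 36 reads in untreated and 0 in control, at least 11.8-fold lower with the control group set to a floor of 3 reads in all. In the endoplasmic reticulum 17 of 37 rose and 4 fell: the chaperones Calr, Canx and P4hb rose by 1.62, 1.43 and 1.40, whereas the stress sensor Ern1, its target Dnajb9, Derl3 and Ero1lb had log2 differences of -1.48, -2.17, -1.32 and -1.29, though the call of Derl3 was lost in several alternatives, among them the fit with a replicate block (-1.43) and the fits without control library 1 or 3 or without untreated library 1, 2 or 3.

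Cytoskeletal genes had 23 large rises among 33 tested and a median of 1.30. Actb was at 1669 to 1868 CPM in untreated and 5259 to 5426 CPM in control, Actg1 rose by 2.21 and Cfl1, which severs actin filaments, by 1.88. Enzymes of purine and pyrimidine synthesis had 22 large rises among 29 tested (median 1.5), with Ppat, the committed step of purine synthesis, at 2.11, Dck at 2.10 and Atic at 1.65.

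Many genes of energy metabolism had higher transcript levels in control, in oxidative phosphorylation, the tricarboxylic acid cycle and part of glycolysis. Nuclear genes for subunits of oxidative phosphorylation had 60 large rises among 81 tested, no large fall and a median of 1.28. Their sum was 4058 to 4452 CPM in untreated and 10371 to 10957 CPM in control. Atp5b, the catalytic subunit of ATP synthase, was at 352, 326, 383 and 347 CPM in untreated and 1224, 1169 and 1204 CPM in control (log2 difference 1.77, SE 0.06, adjusted p = 2.23e-08). Atp5g3 rose by 2.05 and Ndufa4 by 1.65. These are short genes, with a median exon length of 772 bases against 3488 for all tested genes. With the exon length trend removed 19 of 81 had a large rise and the median was 0.78. Mitochondrial ribosomal proteins behaved alike, with 46 large rises among 77 (median 1.12) and 21 once the trend was removed.

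The tricarboxylic acid cycle had 16 large rises among 31 tested and 30 called rises (median 1.03), with Idh3a at 2.08, Mdh2 at 1.90 and Cs, citrate synthase, at 1.82. Ppargc1a, a coactivator known for driving mitochondrial biogenesis, moved in the opposite direction, from 16.1, 13.2, 14.1 and 20.1 CPM in untreated to 1.30, 1.49 and 1.11 CPM in control (log2 difference -3.60, SE 0.25, adjusted p = 9.05e-07). Fatty acid oxidation genes moved little, with 3 large rises (Etfb, Etfa and Acadl), 1 large fall (Acad10) and a median of 0.30 over 32 genes.

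Of 32 glycolysis genes 11 had a large rise and 6 a large fall, with a median of 0.57. Over all tested genes the shares were 15.3% and 20.8%, so large falls were no more common here than among all genes. Ldha, which makes lactate, was at 368, 365, 422 and 345 CPM in untreated and at 1737, 1770 and 1787 CPM in control (log2 difference 2.23, SE 0.07, adjusted p = 1.7e-08). Pgk1 rose by 2.32, Pkm by 1.83 and the lactate transporter Slc16a1 by 2.73. The falls were Ldhb, the isoform that favors pyruvate, at -1.69, and the pyruvate dehydrogenase kinases Pdk2 and Pdk4 at -2.98 and -4.23. They also included Hk3, Eno2 and Pfkfb4 at -3.82, -2.56 and -1.34. In the pentose phosphate pathway 5 of 13 had a large rise and none fell, with Tkt at 2.52 and Pgd at 2.30. The hypoxia list went both ways, with 5 large rises and 4 large falls among 27 and a median of -0.02. Its sum was 1764 to 1834 CPM in untreated and 3778 to 3868 CPM in control, with the abundant Ldha and Pgk1 among its members. Hif1a rose by 1.03, and its relative Epas1 was at -2.55.

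Genes of lipid synthesis rose broadly. Of 29 genes of cholesterol synthesis and uptake 24 had a large rise and none a large fall, with a median of 1.95, and the sum was 1479 to 2070 CPM in untreated and 6557 to 6936 CPM in control. Hmgcs1 (chr13:119690351-119708260), the synthase that SREBP factors induce when sterols are low, was at 83.4, 61.1, 92.4 and 75.6 CPM in untreated and 890, 746 and 811 CPM in control. The groups were far apart, with a log2 difference of 3.37 (SE 0.13, adjusted p = 3.33e-08). Acat2, an early enzyme of the pathway, rose by 3.16 and Nsdhl, a late one, by 2.54. Of the factors themselves, Srebf1 rose by 1.30 and Srebf2 was at 0.20 (adjusted p = 0.0881), though it passed the test under RPKM read total scaling and with the exon length trend removed (0.44 in both) and without untreated library 3 (0.26), and stood at -0.04 with upper-quartile factors.

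The cholesterol sum was 1261 to 1296 CPM after 5-FU in fresh cells, below every untreated library, and 6064 to 6562 CPM in the cultured nifedipine cells, while the mitosis sum was high in both. Hmgcs1 was at 30.0 to 54.5 CPM after 5-FU and 761 to 854 CPM with nifedipine. The 5-FU and nifedipine levels were scaled over all 15 libraries, and those of untreated and control over their 7 libraries. The levels come from different file sets, and the differences from untreated and control were not tested.

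Fatty acid synthesis and desaturation had 15 large rises among 25 tested and 1 large fall, Acacb at -1.99. Scd1, which makes monounsaturated fatty acids, was at 11.6, 19.4, 9.91 and 18.3 CPM in untreated and 879, 840 and 829 CPM in control (log2 difference 5.89, SE 0.20, adjusted p = 2.7e-08). It was among the 3 largest rises of the named genes. Its paralog Scd2 was already high, at 458 to 545 CPM, and rose to 2798 to 3078 CPM. Fasn rose by 2.32, Elovl6 by 1.89 and Acly, which makes cytosolic acetyl-CoA, by 1.90. Genes of sterol export moved apart: Apoe had a log2 difference of -4.48, Abca1 of -1.88 and Mylip, a target of LXR factors, of -1.69, whereas Lpcat3 and Scarb1 rose by 1.83 and 1.69.

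The stretch of the Hmgcs1 promoter is shown because it holds the one match to the sterol regulatory element (TCACNCCAC) among the 17 risen cholesterol genes with a window (5.88%, against 1.44% of all). Of the others it says only that these letters are not in this window.
Hmgcs1, chr13:119690169-119690267, plus strand, sterol regulatory element: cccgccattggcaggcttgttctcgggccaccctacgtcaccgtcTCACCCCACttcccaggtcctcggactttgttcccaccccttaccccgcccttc

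Among genes of amino acid supply, large rises outnumbered large falls. Amino acid transporters had 9 large rises and 3 large falls among 24 tested (median 0.62). In the list of ATF4 targets and serine synthesis 17 of 30 had a large rise and 4 a large fall (median 1.23). Psat1, an enzyme of serine synthesis, was at 53.5, 62.3, 75.6 and 61.5 CPM in untreated and 511, 467 and 483 CPM in control (log2 difference 2.95, SE 0.10, adjusted p = 2.96e-08). Asns, asparagine synthetase, rose by 2.82, Slc7a5, the large neutral amino acid carrier, by 3.08 and Mthfd2, of mitochondrial folate metabolism, by 4.00. Trib3, Cebpb, Ddit4 and Vldlr, which are counted among the stress targets, fell to log2 differences of -1.77, -1.82, -1.39 and -1.82. The composite C/EBP-ATF site TGATGNAA was in 5 of 15 of the risen genes with a window (33.3%, against 4.51% of all), among them Asns.
Asns, chr6:7693210-7693277, minus strand, composite site: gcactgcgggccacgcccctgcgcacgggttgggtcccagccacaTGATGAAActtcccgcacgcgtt

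Redox genes had 12 large rises and 5 large falls among 35 tested. The thioredoxin and glutathione genes Txn1, Gclm and Prdx1 rose by 2.25, 2.40 and 1.63, and the NRF2 target Nqo1 by 2.32. Hmox1, heme oxygenase, had a log2 difference of -1.83 and the glutathione transferase Gstm1 of -2.85. Txnip, which binds thioredoxin and limits glucose uptake, was at 1223, 1468, 698 and 1397 CPM in untreated and 85.1, 85.5 and 87.9 CPM in control (log2 difference -3.80, SE 0.24, adjusted p = 5.87e-07). In iron handling the transferrin receptor Tfrc rose by 2.45 and the exporter Slc40a1 fell to a log2 difference of -3.45, which was not called with limma-voom.

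**Figure D2:**
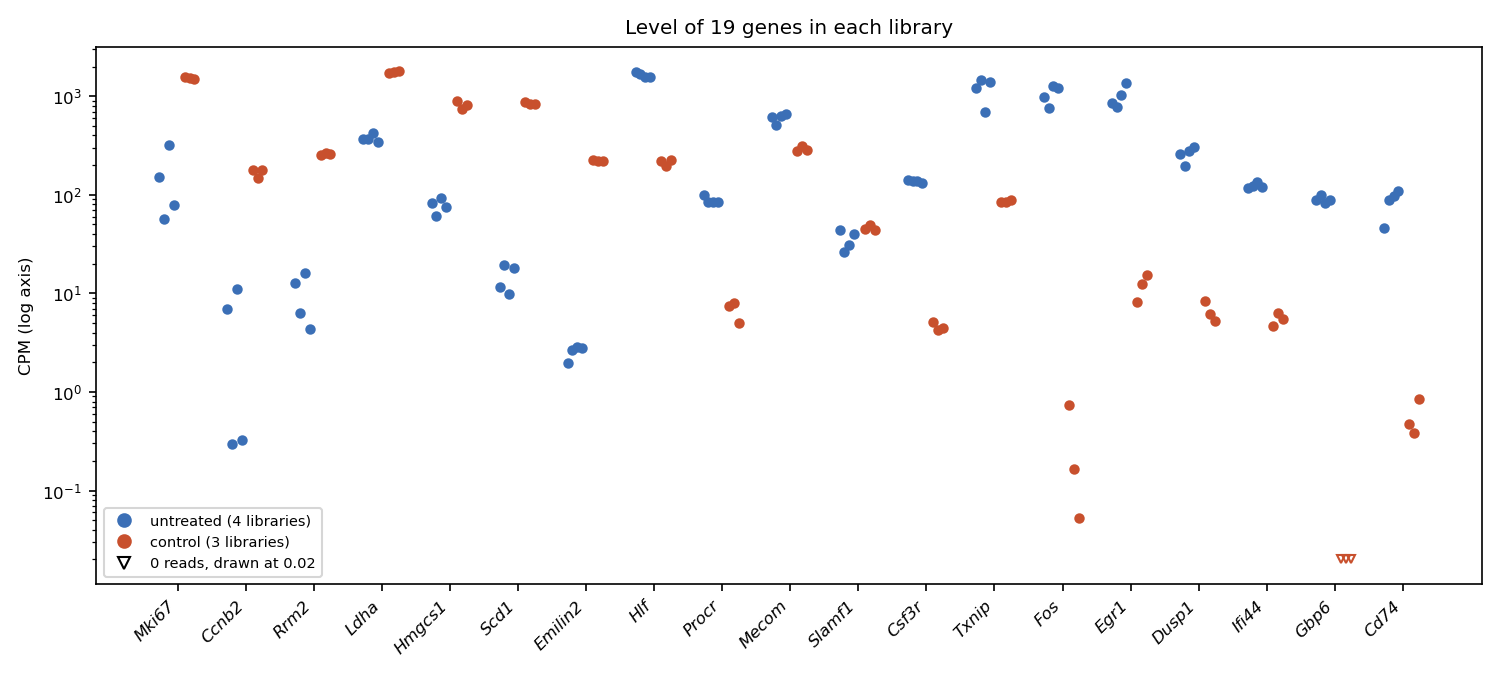
CPM on a log axis of 19 genes in each untreated library (blue, 4) and control library (red, 3); open triangles are libraries with 0 reads. Slamf1 is the one gene of these 19 that was not called; Scd1 rises from between 9.91 and 19.4 to between 829 and 879 CPM, and Fos falls from at least 759 to at most 0.737 CPM.

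The lowest median of any list other than cell type markers was that of immediate early genes, which cells switch on within minutes of a stimulus. Of 39 tested, 29 had a large fall, 1 a large rise (Fosl1, at 2.98) and the median was -2.92. Their sum was 4935 to 7515 CPM in untreated and 1190 to 1210 CPM in control. Fos (chr12:85473901-85477269), a partner in the AP-1 factor, was at 978, 759, 1282 and 1222 CPM in untreated and at 0.737, 0.166 and 0.0530 CPM in control (log2 difference -11.54, SE 0.40, adjusted p = 2.55e-08). Every untreated library was high and every control library close to 0. Fosb had a log2 difference of -9.09, Jun of -5.43 and Junb of -4.22.

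Egr1, an early zinc finger factor also tied to HSC quiescence, was at 847, 774, 1039 and 1351 CPM in untreated and 8.20, 12.5 and 15.5 CPM in control (log2 difference -6.39, SE 0.29, adjusted p = 8.3e-08). Its relative Egr3 had 7392 reads in untreated and 0 in control, at least 2400-fold lower by the same floor, though limma-voom did not call it. Dusp1, a phosphatase that switches off MAP kinases, had a log2 difference of -5.30 and Ppp1r15a, which restores translation after stress, of -4.0. After 5-FU, in cells also sorted fresh, Fos was at 126 to 424 CPM and Egr1 at 128 to 215 CPM. In the cultured nifedipine cells Fos was at 0.437 to 1.25 CPM.

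The cyclic AMP response element TGACGTCA was in 4 of the 25 fallen early genes with a window (16.0%, against 2.03% of all), namely Btg2, Dusp1, Maff and Ppp1r15a, and the 1 form of the CArG box searched was in 0 of 25 (against 0.0777% of all). The Dusp1 and Ppp1r15a stretches are shown for the shared element.
Dusp1, chr17:26508563-26508660, minus strand, cyclic AMP response element: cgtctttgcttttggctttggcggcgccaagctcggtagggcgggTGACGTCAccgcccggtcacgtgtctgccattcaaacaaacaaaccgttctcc
Ppp1r15a, chr7:45526269-45526325, minus strand, cyclic AMP response element: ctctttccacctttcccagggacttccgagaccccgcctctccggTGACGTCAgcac

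Genes linked to quiescence and FOXO factors had 22 large falls among 30 tested, no large rise and a median of -2.08. Several of them are also immediate early genes (Btg2, Egr1, Klf2, Klf4, Klf6, Nr4a1, Nr4a2, Nr4a3 and Zfp36), so the lists share members. Outside that overlap, Foxo1 fell from 95.5, 99.6, 82.7 and 104 CPM in untreated to 22.7, 20.3 and 22.7 CPM in control (log2 difference -2.12, SE 0.10, adjusted p = 1.25e-07). Foxo3 had a log2 difference of -1.26. Trib2 had 787 reads in untreated and 3 in control, a ratio of 269 with a 95% exact counting interval of 91.7 to 1307. The summed level was 6775, 6875, 6853 and 8383 CPM in untreated and 2845 to 2915 CPM in control.

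Innate immune genes fell as families. Of 27 NF-kB factors and targets 16 had a large fall and 1, Tnf, a large rise (1.78), with a median of -1.5. Nfkbiz, an inhibitor-like cofactor induced by NF-kB, was at 242, 226, 368 and 373 CPM in untreated and 27.8, 26.2 and 27.3 CPM in control (log2 difference -3.48, SE 0.20, adjusted p = 3.23e-07). Traf1 had a log2 difference of -3.85, Tnip3 of -2.80 and the chemokine gene Ccl4 of -4.42. Nfkbia, the feedback inhibitor, had a log2 difference of -2.77, and its promoter held the only match to the 1 form of the kB site searched among 11 fallen genes with a window (9.09%, against 0.107% of all).

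Interferon-stimulated genes had 40 large falls among 55 tested, with a median of -1.73. The 1 large rise, Bst2 at 1.00, was at the threshold and lost its call with the exon length trend removed. Their sum was 4824 to 5157 CPM in untreated and 1863 to 2000 CPM in control, 3483 to 4794 CPM after 5-FU and 3125 to 3642 CPM with nifedipine. Ifi44 was at 118, 123, 135 and 121 CPM in untreated and at 4.68, 6.36 and 5.46 CPM in control (log2 difference -4.50, SE 0.12, adjusted p = 1.06e-08). The guanylate binding protein genes were among the deepest falls of the list: Gbp6 had 5147 reads in untreated and 0 in control, at least 1796-fold lower, and Gbp4 had 4075 and 3 reads, a ratio of 1393 with a counting interval of 476 to 6757. Irf7, a factor that carries the response, had a log2 difference of -2.31.

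An interferon-stimulated response element was in 15 of the 28 fallen genes with a window (53.6%), against 3.99% of all genes. The Ifi203 and Oas3 stretches are shown as examples of the element, and these genes had log2 differences of -1.73 and -2.64.
Ifi203, chr1:173942493-173942572, minus strand, response element: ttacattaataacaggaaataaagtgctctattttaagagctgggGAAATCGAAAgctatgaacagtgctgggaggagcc
Oas3, chr5:120777680-120777779, minus strand, response element: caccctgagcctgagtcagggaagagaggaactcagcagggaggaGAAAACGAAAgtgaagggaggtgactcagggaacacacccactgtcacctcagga

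Antigen presentation genes fell with them, with 13 large falls among 27 tested, no large rise and a median of -1.10. The class II invariant chain Cd74 was at 46.4, 88.6, 97.7 and 110 CPM in untreated and 0.477, 0.387 and 0.849 CPM in control (log2 difference -7.22, SE 0.41, adjusted p = 2.86e-07). H2-Aa, a class II chain, had 1899 reads in untreated and 0 in control, at least 705-fold lower. In class I, H2-Q4 and H2-T23 had log2 differences of -2.02 and -1.62 and the coactivator Nlrc5 of -1.26, whereas B2m was called at -0.63 only.

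**Figure D3:**
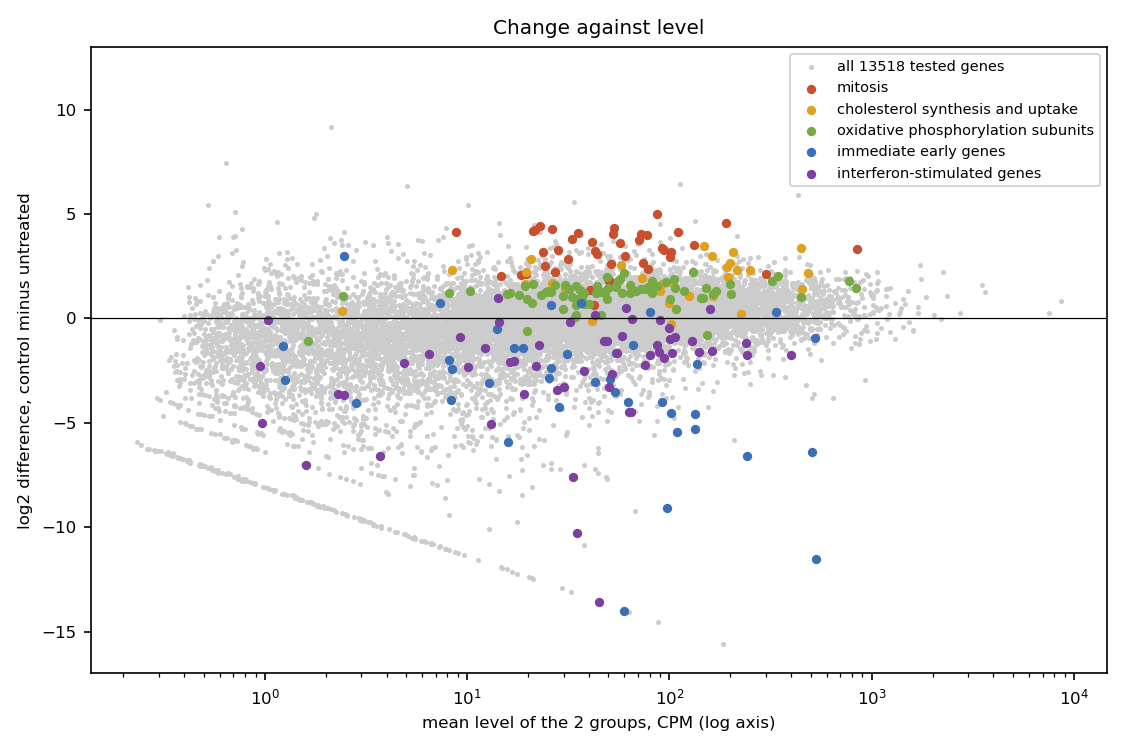
Log2 difference (control minus untreated) against the mean level of the groups in CPM (log axis) for the 13518 tested genes (grey) and 5 lists in color. The diagonal line of grey points at lower left holds genes with 0 reads in control, whose fitted differences are not bounds; mitosis and cholesterol genes lie above 0 with few exceptions, and immediate early and interferon-stimulated genes mostly below.

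The HSC program fell in part. Among HSC transcription factors 10 of 29 had a large fall and 1 a large rise, Gfi1b at 1.25, with a median of -0.70. Hlf (chr11:90336535-90390917), a factor largely restricted to HSCs within blood, was at 1772, 1669, 1577 and 1561 CPM in untreated and 221, 194 and 225 CPM in control (log2 difference -2.95, SE 0.07, adjusted p = 1e-08). Mllt3, known to maintain human HSCs in culture, had a log2 difference of -2.73, Prdm16 of -2.14, Zfp521 of -2.12 and Hoxb5 of -2.37. Mecom was at 620, 515, 633 and 657 CPM in untreated and 278, 311 and 288 CPM in control, a log2 difference of -1.05 (SE 0.09, adjusted p = 2.88e-06).

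Other members held closer to the fresh level. Meis1 was called at -0.65. Runx1 was called at -0.28, a call lost without control library 2 or 3 and under RPKM read total scaling, and Gata2 was not called, at 202 to 235 CPM in untreated and 218 to 251 CPM in control (adjusted p = 0.26). The summed level of the list was 7908 to 8616 CPM in untreated, 4330 to 4501 CPM in control, 6212 to 6331 CPM after 5-FU and 5047 to 5407 CPM with nifedipine.

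Surface and marker genes of HSCs had 16 large falls and 3 large rises among 32 tested, with a median of -1.03. Procr, which encodes the marker EPCR, was at 98.6, 83.9, 85.4 and 84.3 CPM in untreated and 7.46, 7.91 and 4.98 CPM in control (log2 difference -3.70, SE 0.16, adjusted p = 6.99e-08). Ly6a (Sca-1) had a log2 difference of -3.61, Clec1a of -3.54, Robo4 of -3.82, Fgd5 of -1.40 and Tek, the angiopoietin receptor, of -1.0. Procr was at 55.2 to 79.4 CPM after 5-FU and 21.3 to 33.3 CPM with nifedipine. The 3 rises were Cd48 (2.85), Cd9 (1.92) and Itga2b (2.23), which encodes CD41. Slamf1, with 43.6, 26.2, 31.1 and 40.3 CPM in untreated and 44.9, 49.2 and 44.2 CPM in control, did not pass the test (adjusted p = 0.0574) although the groups did not overlap, and passed it at 0.62 when scaled by the RPKM read total, at 0.35 with limma-voom, at 0.44 with the replicate block and at 0.49 without untreated library 1. Cd34 was called at 0.43, a call lost without control library 1 or 3, with the 10 CPM filter, with the exon length trend removed (0.33) and with upper-quartile factors (0.18). Which of these proteins the sort selected on is not given, so their levels may be set by the gate.

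Cytokine receptors had 14 large falls and 1 large rise, Epor at 1.24, among 29 tested (median -1.04). Kit, the receptor of stem cell factor, was at 1156, 1263, 1014 and 1166 CPM in untreated and 470, 377 and 441 CPM in control (log2 difference -1.42, SE 0.09, adjusted p = 6.67e-07). Csf2ra, a chain of the GM-CSF receptor, had a log2 difference of -2.41, Il6ra of -4.46 and Flt3 of -7.03. Csf3r, the G-CSF receptor, changed evenly across libraries, from 132 to 142 CPM in the 4 untreated libraries to 4.26 to 5.12 CPM in control (log2 difference -4.89, SE 0.09, adjusted p = 4.68e-09). Downstream, JAK-STAT feedback genes had no common direction, with 3 large rises and 4 large falls among 28. Pim2, a survival kinase induced by cytokines, rose by 3.08, Id1 by 4.01 and Bcl2l1 (BCL-XL) by 1.46. Cish fell to a log2 difference of -1.51, Pim3 and Socs3 had log2 differences of -1.55 and -1.51, Gfi1 had 2620 reads in untreated and 0 in control, at least 849-fold lower, and Socs2 was at -0.36 (adjusted p = 0.0668). Socs2 passed the test with DESeq2 (-0.40), limma-voom (-0.36), upper-quartile factors (-0.61) and the replicate block (-0.40), and without untreated library 2 or 4 (-0.45 and -0.44), while removal of the exon length trend turned it to 0.21.

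Calcium genes had 16 large falls and 4 large rises among 44 tested, with a median of -0.48. Cacna1d, an L-type channel pore that nifedipine blocks, was at 12.1, 9.04, 8.46 and 10.4 CPM in untreated and 0.390, 0.608 and 0.689 CPM in control (log2 difference -4.15, SE 0.32, adjusted p = 2.08e-06). Cacna1c, another pore of that type, had a log2 difference of -2.34, and Camk2d and Nfatc2, which act downstream of calcium, of -2.44 and -1.49. The rises included Atp2a2, the calcium pump of the endoplasmic reticulum, at 1.11, Camk4 at 1.19 and Smdt1 at 1.5. Mcu, the mitochondrial uniporter, was called at 0.64. Gem, which inhibits calcium channels, was at 17.8 to 35.0 CPM in untreated, 126 to 179 CPM in control, 801 to 1035 CPM after 5-FU and 406 to 510 CPM with nifedipine.

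Chromatin genes moved in both directions. Ezh2, the methyltransferase of Polycomb in dividing cells, rose by 1.57 and Ezh1, that of resting cells, had a log2 difference of -1.90, at 96.8 to 117 CPM in untreated and 27.2 to 31.7 CPM in control. Cbx7, a Polycomb subunit known for supporting HSC self-renewal, had a log2 difference of -3.16. Uhrf1 and Dnmt1, which copy DNA methylation at replication, rose by 2.88 and 1.70, and Dnmt3b rose by 1.75. The list as a whole had 7 large rises and 3 large falls among 30, with a median of -0.09.

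The p53 targets and the BCL2 family did not move as a unit. Among p53 targets 7 of 34 had a large rise and 8 a large fall; Bax rose by 2.43, Plk2 had a log2 difference of -4.68, and Ccng1 was called at 0.94. In the BCL2 family Bak1, Bax, Bcl2l1 and Birc5, which also serves mitosis, were large rises, Birc3 and Bmf large falls, and Mcl1 was called at -0.94. Autophagy and lysosome genes had 10 large falls and 1 large rise among 55, with a median of -0.16, of which Ctsh, a cathepsin, had a log2 difference of -5.73 and Mitf of -3.12. Adhesion genes had 9 large falls and 2 large rises among 32; Itga9 had a log2 difference of -4.95 and Alcam of -2.91, while the actin regulators Cdc42 and Rhoa were called higher at 0.90 and 0.79.

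The 15 largest rises that carry a gene name and at least 10 CPM mixed these families with single genes. Emilin2, an extracellular matrix glycoprotein, led them at 1.97, 2.67, 2.84 and 2.77 CPM in untreated and 228, 219 and 219 CPM in control (log2 difference 6.45, SE 0.11, adjusted p = 2.72e-09). It stood at 2.49 to 4.51 CPM after 5-FU and at 99.8 to 151 CPM with nifedipine. Gata1, the factor of red cells and megakaryocytes, went from at most 0.258 CPM in untreated to 13.1, 7.30 and 9.70 CPM in control (6.32). Gata1 was at most 0.101 CPM with nifedipine. Tuba8 (5.56), Bcat1 (5.43), which breaks down branched-chain amino acids, S100a4 (4.51) and Alox5 (4.32), which makes leukotrienes, were the others outside the cell cycle along with Scd1 and Ccdc168 (4.58).

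Markers of other cells were read for what the sorted cells may have held. Endothelial and stromal markers summed to 1209, 2644, 626 and 1146 CPM in untreated and 619 to 665 CPM in control. Of 27 tested, 9 had a large fall, 1 had a large rise and 8 were at 0 in control. Cxcl12, a chemokine of marrow stroma, was at 96.8, 1153, 0.613 and 217 CPM in untreated and at 0 in control, and Lepr at 33.0, 265, 1.00 and 53.9 CPM, so that untreated library 3 held almost none and library 2 most. Without untreated library 3 the list had 18 large falls. Vcam1, Igfbp5, Esm1, Serping1, C4b and Fabp4, which are among the 15 largest falls, were likewise uneven: Igfbp5 was at 10.3, 167, 0.835 and 56.8 CPM. With limma-voom Cxcl12, Lepr, Vcam1, Igfbp5, Esm1, Serping1, Fabp4 and Hba-a2 were not called. In untreated library 3, where Cxcl12 was nearly absent, Fos (1282 CPM), Hlf (1577 CPM), Procr (85.4 CPM) and Gbp6 (82.0 CPM) stood near their levels in the other 3. Not every fallen gene did so. Cdkn1b was at 44.1 CPM there against 55.8 to 58.0 CPM in the other 3, and Txnip was also lowest there. That library also differed in its mitosis sum, at 1401 CPM against 329 to 684 CPM in the other 3. Whether stromal cells account for any of the falls was not tested. Some listed genes, such as Tie1 (214 to 277 CPM in untreated and 143 to 158 CPM in control), are also made by HSCs.

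Erythroid markers summed to 791, 2566, 770 and 2864 CPM in untreated and 1153 to 1177 CPM in control. Of 19 tested, 4 had a large rise and 4 a large fall, with a median of -1.64. Hba-a2, a hemoglobin gene, was at 263 and 238 CPM in untreated libraries 2 and 4, at 1.31 and 0.613 CPM in libraries 1 and 3, and at 0 in control. Granulocyte and monocyte markers had 10 large falls and 1 large rise among 14 tested, summing to 312 to 370 CPM in untreated and 95.0 to 114 CPM in control. Lyz2 made up much of this, at 130 to 146 CPM and 59.9 to 76.6 CPM. Lymphoid markers had 7 large falls among 10 tested (296 to 390 CPM against 67.6 to 90.7 CPM), with Satb1 at -4.71, Notch1 at -2.05 and Klrb1c at -7.17. Megakaryocyte markers had 7 large rises and 4 large falls among 24, with F2r, the thrombin receptor, at 2.30. Mast cell and basophil markers had 3 large falls among 9, with Slc18a2 at -1.51. The part of these cells in the differences between the groups was not tested.

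**Figure D4:**
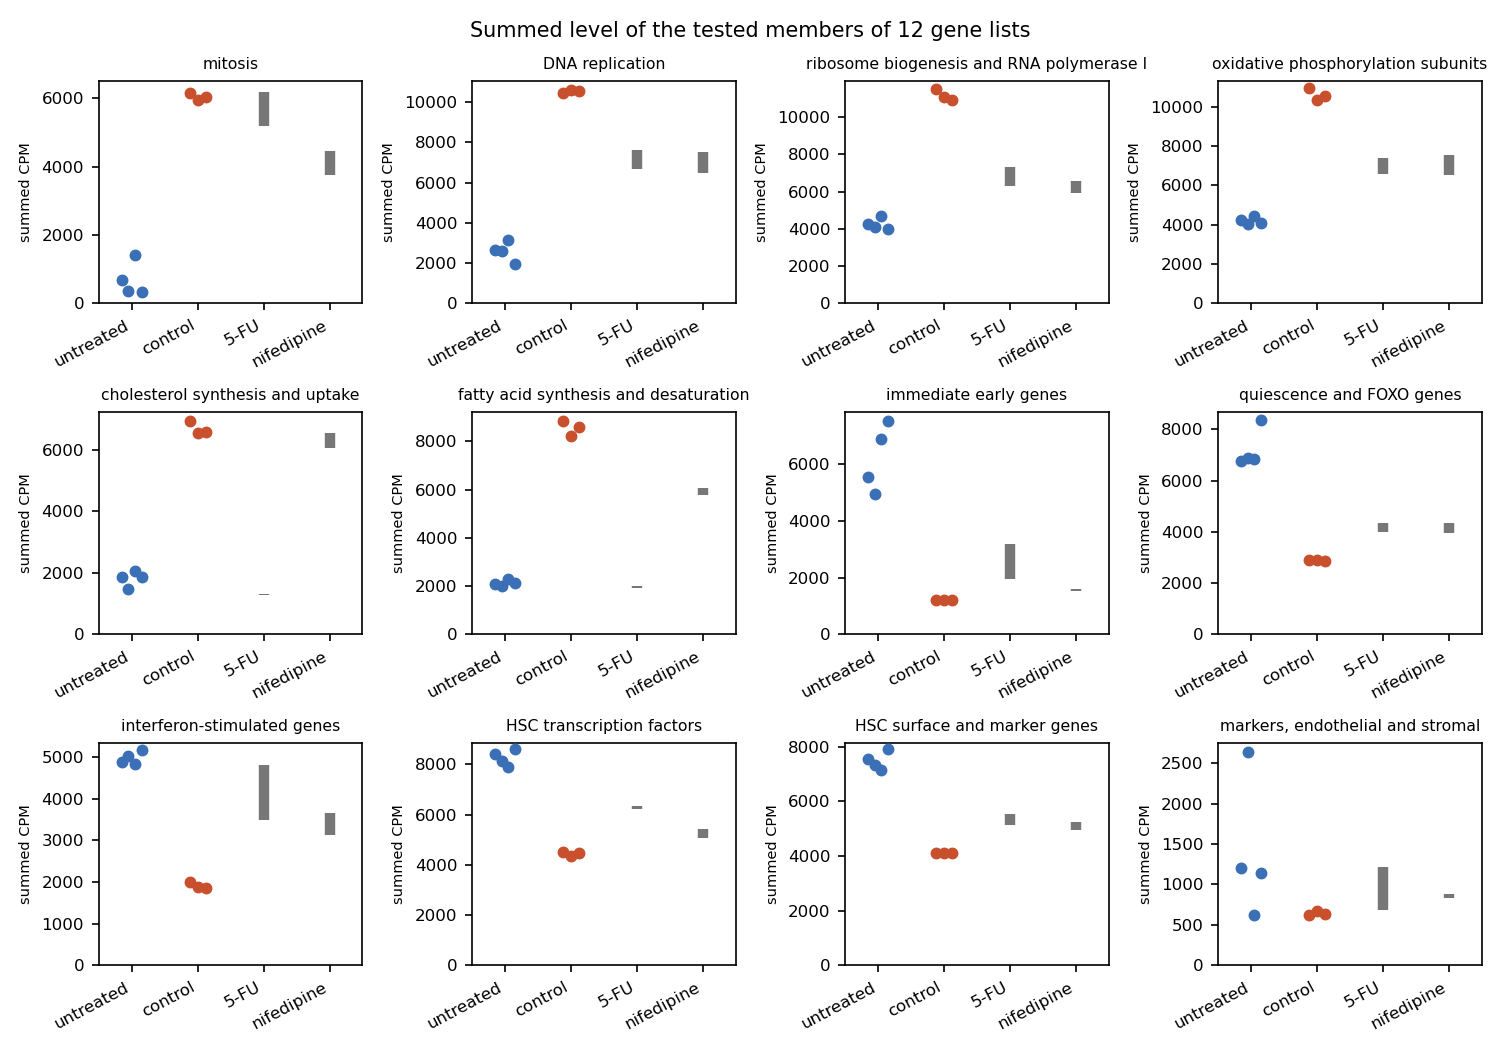
Summed CPM of the tested members of 12 lists, as points for each untreated (blue) and control (red) library and as grey bars from lowest to highest library after 5-FU and with nifedipine, scaled over all 15 libraries. Mitosis is high in control (5943 to 6153) and after 5-FU (5173 to 6195), while cholesterol synthesis is high in control (6557 to 6936) and low after 5-FU (1261 to 1296).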

How the data were processed

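Exon read counts were deposited by the authors as a table per library, with RPKM values of the same 48737 features beside them, per the file headers. The counts are whole reads over exons. The RPKM values were divided by exon length and by a larger read total that was worked back from them here. The submitters' processing notes name mm10 as the build. The aligner and counter are not named in any source used here. The labels describe Nextera XT libraries, which do not mark strand, from 100 cells each.

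Copies of a gene on scaffolds were added up (1934 genes had more than 1 copy), which left 46102 genes. The 37 mitochondrial features held 0 reads. Counts of the 7 libraries were fitted with edgeR 4.0.16 in R 4.3.3 (TMM, filterByExpr, quasi-likelihood F test, group only), which tested 13518 genes with Benjamini-Hochberg adjustment. The common biological coefficient of variation was 0.213. Replicates differed beyond counting noise, with a chi-square per degree of freedom of 9.5 to 21.9, so no pair was a library deposited more than once by that test. Levels after 5-FU and with nifedipine come from TMM scaling of all 15 libraries. A lower bound sets a group with 0 reads to 3 reads, a floor of 0.05 CPM in control, and counting intervals are exact at 95%. Both cover counting error only. Lists were described by counts and medians with no set test.

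The members and the 50 lists (1690 genes) were chosen with earlier results of these data known. Named genes are the 15 largest rises and falls with at least 10 CPM in the higher group, the 4 members of smallest p in each list, and a set of HSC, cell cycle, early response, lipid and calcium genes. The others named were chosen after their values were seen. Promoters are RefSeq windows of GRCm38.p6, found by symbol. The fit was tested on simulated counts in which few genes changed, evenly in both directions. In these data 72.0% of tested genes were called, so that test does not bear on the scaling. Alternatives were DESeq2 1.42.0, limma-voom (limma 3.58.1), other scaling, filters, thinning to 6171730 reads, removal of the exon length trend, features as deposited, all 15 libraries in 1 fit, a replicate block and each library left out. A few list members are not reported here.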

Additional observations from a re-analysis of the deposited data

Results flagged for a closer look

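Among 303 summed or single-gene levels examined in the 4 untreated libraries, 15 had 1 library apart from the other 3 by Dixon's criterion at 95%, which chance alone gives in about 1 in 20 groups. Control, with 3 libraries, was not examined. Untreated library 4 held 8383 summed CPM of quiescence and FOXO genes against 6775 to 6875, 1629 of p53 targets against 1407 to 1444, 27.6 CPM of Ccl4 against 15.8 to 17.8, 143 of Nfkbia against 74.1 to 85.1, 244 of Rbl2 against 216 to 218, 54.0 of Myc against 77.1 to 78.9 and 25.1 of Etfb against 27.8 to 28.3. In untreated library 2 the fatty acid oxidation sum was 1468 against 1430 to 1436 CPM, C4b was at 73.2 against 3.28 to 8.31, Runx1 at 402 against 313 to 325 and Slc16a1 at 46.0 against 60.1 to 62.4. In untreated library 3 Cdkn1b was at 44.1 against 55.8 to 58.0 and Fasn at 262 against 173 to 188. In untreated library 1 the sum of endoplasmic reticulum genes was 4583 against 4378 to 4405 CPM and Procr was at 98.6 against 83.9 to 85.4.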

How the results depend on the processing

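Culture and library set cannot be told apart, and single-gene differences of less than 1 log2 unit are given as values beside the large changes. Medians below have each setting's shift of all genes taken off. Of 900 list medians under alternatives, 824 moved by less than the spread between replicates and 76 by more, and of 1800 list counts 1682 stayed within 1.5 times. Of 72 gene counts, 71 did. The large falls numbered 1868 with the 10 CPM filter, which tests 10169 genes.

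With the 10 CPM filter the medians were 0.08 for histones, -0.15 for kinase inhibitors, -1.83 for quiescence, -1.63 for interferon-stimulated genes, -1.0 for antigen presentation, -0.87 for cytokine receptors, -0.27 for adhesion, 1.51 for fatty acid synthesis, 0.74 for glycolysis, 1.48 for ATF4 targets, 0.91 for the endoplasmic reticulum, 0.85 for p53 targets, 0.0 for calcium, 0.81, -1.46 and -2.05 for megakaryocyte, granulocyte and lymphoid markers. With the exon length trend removed they were 0.5 for histones, -1.24 for antigen presentation, 0.03 for JAK-STAT, -0.91 for cytokine receptors, -0.1 for sterol export, 0.04 for fatty acid oxidation, 0.65 for glycolysis, 0.97 for the pentose phosphate pathway, 0.78 for oxidative phosphorylation, 0.75 and -0.36 for mitochondrial and cytosolic ribosomal proteins, 0.92 for translation, 1.13 for ATF4 targets, 0.94 for chaperones, 1.16 for the proteasome, 0.41 for redox genes, 1.35 for purines and pyrimidines, 0.11 for p53 targets, 0.88 for amino acid transporters, 0.35 for iron, -0.42 for calcium, 0.1 for Polycomb, 1.09 for the cytoskeleton and -0.8 for mast cell markers. Thinned reads gave 0.51 for histones, -1.72 for NF-kB, 1.51 for fatty acid synthesis, 0.65 for glycolysis, 1.41 for ATF4 targets, 0.15 for p53 targets and 0.6 for iron. With limma-voom fatty acid synthesis was at 1.5. The cause of these moves was not tested.

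Same-numbered libraries deviated together little (correlations 0.0261, 0.0159 and 0.00546, against -0.0298 to 0.00803 for different numbers). Correlations this small over all genes cannot tell whether the numbers pair the libraries. With the replicate block, which leaves out untreated library 4, 4505 genes were called higher and 4370 lower, and medians were 1.51 for fatty acid synthesis, -0.6 for calcium, -0.09 for erythroid and -1.99 for lymphoid markers. Leaving out 1 library at a time gave medians of 0.2 to 0.25 for cytosolic ribosomal proteins, 0.5 to 0.6 for iron, -1.86 to -1.43 for NF-kB, -0.21 to -0.1 for autophagy, -0.8 to -0.66 for HSC transcription factors, -2.13 to -1.87 for quiescence, -0.63 to -0.44 for calcium, -1.07 to -0.92 for cytokine receptors and 0.65 to 0.77 for redox genes. Markers were less steady: -0.04 to 0.64 for megakaryocyte, lowest without control 2, -0.73 to 0.0 for mast cell, highest without control 3, -2.51 to -1.77 for granulocyte, -3.32 to -1.98 for lymphoid, -4.1 to -2.14 for endothelial and stromal, highest without untreated 1, and -1.89 to -0.1 for erythroid, with -0.15 without untreated 2 and -0.1 without untreated 4.

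Among named genes, 30 values under alternatives lost a call, 27 gained one and 13 changed sign. Beside those in the results, Ccnd1 gained one with upper-quartile factors (-0.49), Ccnd2 under RPKM read total scaling (0.26) and with the exon length trend removed (0.28), Gata2 under RPKM read total scaling (0.34) and Socs2 with the 10 CPM filter (-0.51), with thinned reads (-0.39) and in the fit of all libraries (-0.42). The replicate block changed the calls of Cdkn1a, Derl3, Slamf1 and Socs2 among named genes. Sign changes were in differences near 0. Ccnd2 was at -0.13 with the 10 CPM filter, -0.02 with DESeq2, -0.03 in the fit of all libraries and with thinned reads, -0.01 with the replicate block and without untreated 4, and -0.23 with upper-quartile factors, with -0.01 to 0.05 over the fits that leave out 1 library. Gata2 was at -0.06 with the 10 CPM filter and -0.15 with upper-quartile factors, which put Mycn at -0.01 and Srebf2 at -0.04. With the exon length trend removed Runx1 was at 0.03 and Socs2 at 0.21. In the lists, large rises past 1.5 times from those reported include 15 synthetases and 10 tricarboxylic acid cycle genes with upper-quartile factors, and large falls 9 calcium genes and 3 granulocyte markers with the 10 CPM filter.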
